A study of Saccharomyces cerevisiae with 4 samples.

Results

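The genes described here encode proteins of the yeast mitochondrial ribosome that carry an MRPL, MRPS, RSM or MRP name. MRP35 was not among the MRP names used, and it is counted here with all other genes. The choice was by symbol: every coding sequence named MRPL, MRPS or RSM with a number, together with 11 listed MRP genes of the ribosome. This gave 65 of the 6600 coding sequences in the count table, 37 of the large subunit and 28 of the small subunit, and all 65 passed the filter on low counts that left 5233 genes for testing. Ribosome profiling counts the mRNA fragments that ribosomes shield from nuclease, so a count here reflects cytosolic ribosomes on the mRNA of a mitochondrial protein. The study set a mutant, in which the OAZ1 gene had been exchanged for an in-frame version that needs no frameshift, against a wild type (WT) that keeps the frameshifted gene, both in the laboratory strain 74D-694. All 4 libraries, 2 mutant and 2 WT, came from cells in mid-exponential growth in synthetic medium that were treated with cycloheximide at 50 µg/mL. The labels name no clone and no separate cultures, so every p-value here rests on a spread that may be technical.

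Mitochondrial ribosomes translate the few mRNAs made from mitochondrial DNA, which in yeast encode mainly membrane subunits of the respiratory chain and the ATP synthase. Nearly all of their proteins are encoded in the nucleus, made in the cytosol and imported, many with a basic targeting sequence at the N terminus. The mRNAs of many of these proteins are bound in yeast by Puf3, a Pumilio-family protein that recognises a short motif after the stop codon and is known to promote decay of its targets in glucose and their translation in respiring cells. Family names follow the shared nomenclature of ribosomal proteins, where u marks families found in all domains of life, b those shared with bacteria and m those of mitochondria alone.

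The Puf3 motif, TGTANATA on the coding strand, lay within 300 bases after the stop codon of 64 of the 65 members, or 98.5%, against 15.5% of the 5852 other annotated genes. The first sites of 10 members are shown because they belong to members with the most extreme fold changes, ranges or levels below, or, for MRP51, the highest count; each is printed in sense, 5′ to 3′, with the motif in capitals and 11 bases on either side, from the RefSeq genome of strain S288C (sacCer3).
MRPL24 (chrXIII:650856-650885, plus strand): tggttttccccTGTATATAaaaaagcatat
MRP4 (chrVIII:100429-100458, plus strand): taacctaaactTGTACATAtgcccatatat
MRPL3 (chrXIII:323054-323083, plus strand): gtttgccatttTGTAGATAgagaactcctt
MRP7 (chrXIV:621243-621272, minus strand): ttaagaatgccTGTAAATAttactattttg
MRPL33 (chrXIII:842249-842278, plus strand): tgacttatataTGTATATAgtattattttt
MRP49 (chrXI:133678-133707, minus strand): aagtttgttcaTGTATATAtcaaaaaacat
MRP17 (chrXI:437038-437067, minus strand): ctacaaacacaTGTAAATAcatacatatct
MRPL37 (chrII:741638-741667, plus strand): tttggtatcctTGTAAATAaatatgtgtgt
MRPL36 (chrII:483850-483879, minus strand): ataaacagcctTGTATATAccgcaacatat
MRP51 (chrXVI:327697-327726, plus strand): attcagagttcTGTAAATAaataaagaaaa
In the members the first site began 8 to 139 bases after the stop codon, with a median of 51 bases, and all 64 first sites lay within 150 bases. In the other genes with a site the median was 71 bases and 77.5% lay within 150 bases. The 64 genes held 81 sites, and 15 genes had more than 1. A C stood 2 bases before the motif at 63% of the members' sites and at 23.6% of the other genes' sites. The free base of the motif was A at 44.4% of the members' sites, T at 30.9%, C at 22.2% and G at 2.47%. At the other genes' sites it was A at 26.1%, T at 50.6%, C at 16.4% and G at 6.97%. On the opposite strand of the same windows the letters were found in 21.5% of members and 15.5% of other genes. The exception on the sense strand was RSM22, which encodes a methyltransferase-like protein bound to the small subunit; it was also the only member to which RefSeq gives no ribosomal protein family name. Its lack of a match says only that these letters are not in its window. Cytosolic ribosomal proteins, a comparison group of 137 genes, had the motif in 8.76% of cases. The motif was not particular to the members, because other lists of mitochondrial translation genes, described below, also had it often. It was found in 92.9% of 14 mitochondrial aminoacyl-tRNA synthetases and 78.6% of 14 assembly and rRNA modification factors. The shares were 73.3% of 15 translational activators and 66.7% of 12 translation factors.

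**Figure D1:**
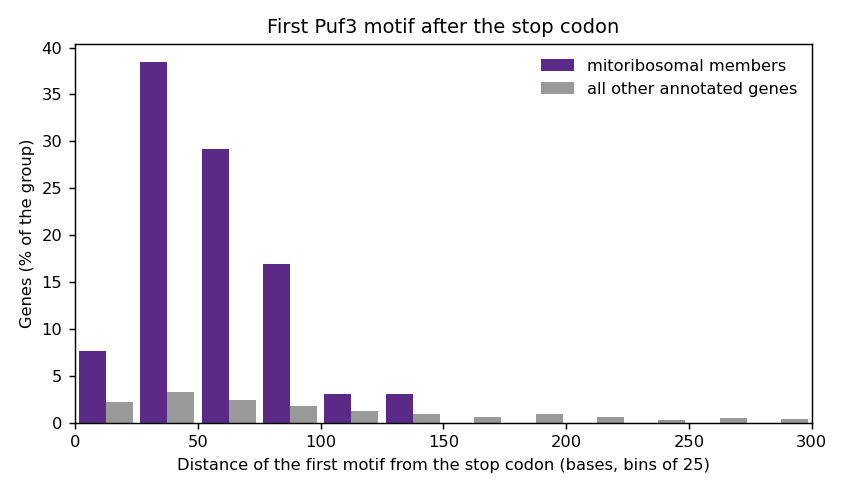
Share of genes (vertical axis, % of the group) by distance of the first Puf3 motif from the stop codon (horizontal axis, bases, bins of 25), for the 65 members and the 5852 other annotated genes. The members' first sites lie at 8 to 139 bases, while those of other genes reach 293 bases.

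The members shared other features that their names do not fix. Their proteins had a median net charge of 14, counting lysine and arginine against aspartate and glutamate, against -1 over all 5917 annotated genes, and 63 of 65 were net positive. The exceptions were MRPL4 (uL29m) and RSM25 (mS23). At least 3 basic and 0 acidic residues stood in the first 20 residues of 66.2% of members and 12.9% of all annotated genes. No member had a hydrophobic segment, defined as a window of 19 residues with a mean hydropathy of at least 1.6, a feature of 30.6% of annotated genes. The cytosolic ribosomal proteins were similar in charge, with a median of 17 and 90.5% net positive, and 6.57% had a hydrophobic segment. The basic N terminus was found in 32.1% of them. Lengths ran from 70 residues in MRPL39 (bL33m) to 628 in RSM22, and only MRPL44 (mL53) had an intron. The letters AATTTT, searched on both strands of the 250 bases before the start codon, were present in 36.9% of members and 49.3% of all annotated genes.

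Levels were compared between genes as CPM, counts scaled to 1000000 per library after TMM normalization, divided by the kilobases of coding sequence. The members were close in level: the 90th percentile was 3.03 times the 10th, against 67.1 times over all genes tested and 12.1 times over the 3008 genes in the same range of mean count. Their median was 86.5 CPM per kilobase, with 76.6 in the large subunit and 89.7 in the small subunit, while cytosolic ribosomal proteins had a median of 1690. MRPL36, the bL31 protein, which in bacteria bridges the subunits, had the highest level, with 224 and 187 CPM per kilobase in the mutant and 207 and 268 in WT. MRPL20 (mL58), a mitochondrion-specific protein, had 187 and 227 in the mutant and 179 and 221 in WT. MRPL51 (mL43) had 201 and 204 in the mutant and 184 and 213 in WT. MRP20, the uL23 protein at the exit of the polypeptide tunnel, had 152 and 195 in the mutant and 188 and 189.5 in WT. The mutant and WT values of these 4 genes overlapped, and their order among themselves changed from library to library.

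RSM22 (YKL155C, chrXI:159456-161342, minus strand) stood apart at the low end, with 13.5 and 9.61 CPM per kilobase in the mutant and 19.7 and 13.2 in WT. The next lowest was MRPL1, the uL1 protein of the stalk near the tRNA exit site, with a mean of 38.6 ± 2.5 CPM per kilobase (SD, n = 4). MRPL25 (mL59) averaged 41.1 ± 4.9 and MRPL9, the uL3 protein near the peptidyl transferase centre, 42.2 ± 3.7, so that these 3 neighbours did not differ beyond their spread. The order of levels was alike in all libraries, with Spearman correlations over the 65 members of 0.875 to 0.96 between pairs of libraries, which share each gene's length and sequence. Level and coding length had a Spearman correlation of -0.323 over the members. In 3 members the coding sequence overlaps another annotated one: MRP4 by 2 bases and MRPL51 by 323 bases on the opposite strand, and MRPL19 by 113 bases on the same strand. The partner of MRPL51 had at most 1 count in a library and that of MRPL19 at most 14, and the strand setting of the counting is not given in the sources used here.

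**Figure D2:**
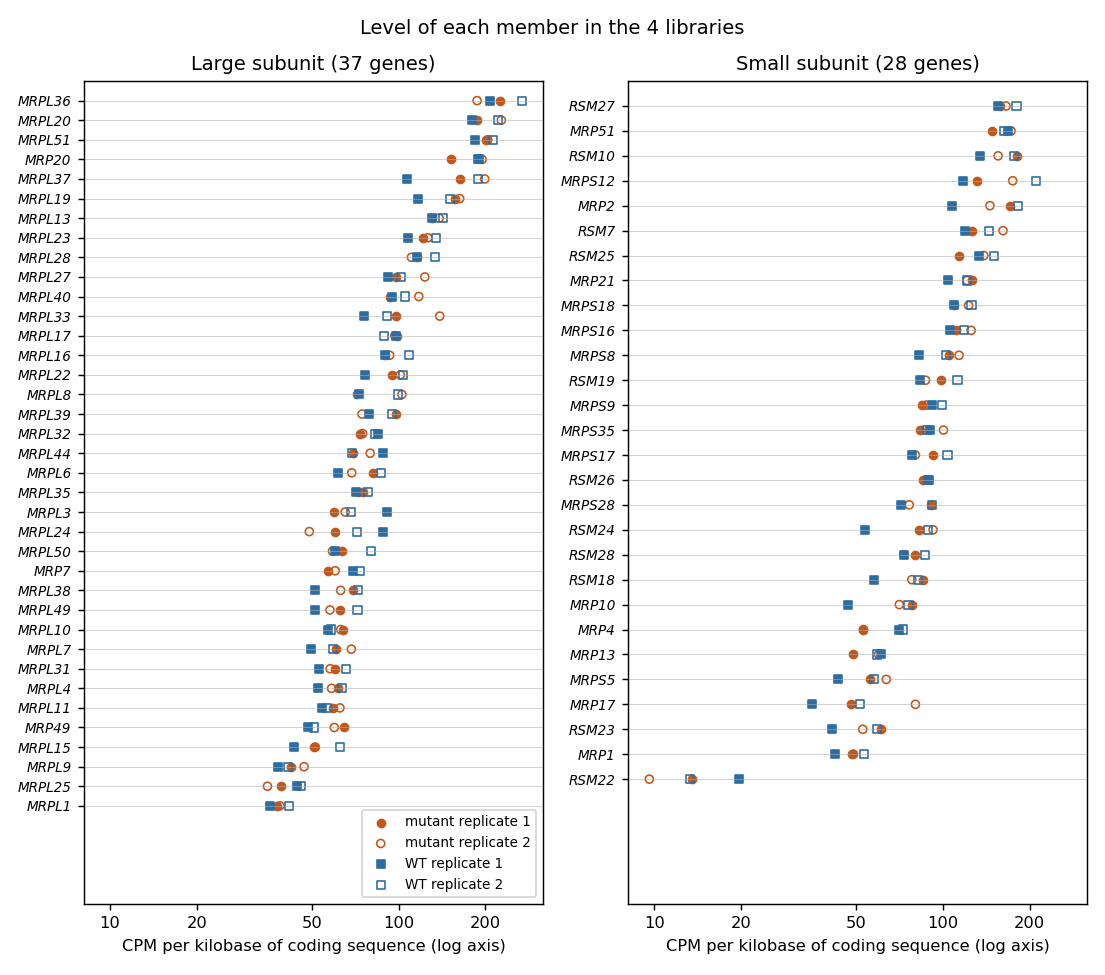
Level of each member in every library (horizontal axis, CPM per kilobase of coding sequence, log axis), ordered by the mean within each subunit, with mutant libraries as circles and WT libraries as squares. RSM22 lies below all others, and most members lie between 50 and 200.

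For the comparison of strains, the targeted gene is described first, whatever its rank. OAZ1, which encodes the antizyme that directs ornithine decarboxylase to the proteasome, had 20.5 and 18.1 CPM in the mutant and 12.7 and 10.7 CPM in WT; its edgeR log2 fold change of 0.73 did not pass the threshold (adjusted p = 0.755). Total counts were 7571371 and 2826895 in the mutant and 29671498 and 10202557 in WT. The lowest count of any member in a library was 43, for MRPL39 in mutant replicate 2, and the highest in every library belonged to MRP51 (bS1m). The share of counts on proteins with a hydrophobic segment was 17.2% and 16.9% in the mutant and 20.6% and 16.6% in WT, and WT replicate 1 was the highest of the 4.

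The share of footprints on mitochondrial ribosomal proteins did not separate the strains. Together they held 0.402% and 0.394% of all counts in the mutant and 0.375% and 0.435% in WT, and both mutant values lay between the WT values (exact permutation test over libraries, two-sided, p = 1, where the smallest p that 2 against 2 allows is 0.333). In a culture harvested as a whole, fewer cells with these mRNAs and fewer ribosomes per cell on them cannot be told apart, and without mRNA counts neither can mRNA level and translation. The members' median log2 fold change, mutant over WT, was 0.03, with 0.01 in the large subunit and 0.03 in the small subunit, against -0.01 over all genes tested. Of the 65 members, 36 lay above 0 and 29 below. The edgeR quasi-likelihood test, with Benjamini-Hochberg adjustment at 0.05, called 0 members and 0% of all 5233 genes, where no adjusted p was below 0.755. Before adjustment, 2 members had a p under 0.05, or 3.08%, against 5.45% of all genes, and DESeq2 called 0 members and 4 genes in all. The median standard error of a member was 0.194 on the log2 scale, and the 95% interval lay within 1 log2 unit of 0 for 60 of the 65.

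The members' fold changes were spread less than those of all genes, as a description with no test. Their log2 fold changes ran from -0.54 to 0.54 with an SD of 0.206, against an SD of 0.393 over all genes tested and 0.373 over genes in the same range of mean count. A log2 fold change beyond 0.5 in either direction was found in 2 members, or 3.08%, and in 15.3% of all genes. Genes without a hydrophobic segment, to which all members belong, had an SD of 0.283. The groups did not overlap in 8 members that were higher in the mutant and 8 that were lower, each 12.3% of the members, while over all genes 19.1% did not overlap and were higher and 17.9% did not overlap and were lower.

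In 8 members both mutant libraries were higher than both WT libraries. MRPL33 (uL30m; YMR286W, chrXIII:841942-842202, plus strand) had 25.7 and 36.3 CPM in the mutant and 19.8 and 23.8 CPM in WT, a log2 fold change of 0.49 ± 0.25 (SE). MRP49 (mL61; YKL167C, chrXI:133721-134134, minus strand) had 26.8 and 24.8 CPM in the mutant and 20.1 and 21.1 CPM in WT, at 0.33 ± 0.19. Neither passed the test over all genes, with an adjusted p of 0.755 each. MRPL19, the uL11 protein at the base of the factor-binding stalk, had 75 and 77.7 CPM in the mutant and 55.7 and 72.1 CPM in WT. MRPL11, the uL10 protein of the same stalk, had 44.5 and 47 CPM in the mutant and 40.7 and 42.4 CPM in WT. Their log2 fold changes were 0.26 and 0.14. The other 4, MRPL7 (uL5m), MRPS8 (uS8m), MRPL9 (uL3m) and MRPL10 (uL15m), had log2 fold changes of 0.15 to 0.24.

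In 8 members both mutant libraries were lower than both WT libraries. MRPL24 (bL28m; YMR193W, chrXIII:650036-650812, plus strand) had 46.9 and 38.1 CPM in the mutant and 68.8 and 55.6 CPM in WT, a log2 fold change of -0.54 ± 0.21 (edgeR unadjusted p = 0.038, adjusted p = 0.755). MRP4, the uS2 protein (YHL004W, chrVIII:99219-100403, plus strand), had 62.9 CPM in both mutant libraries and 83.3 and 86 CPM in WT, a log2 fold change of -0.43 ± 0.16 (edgeR unadjusted p = 0.0393, adjusted p = 0.755). The values within each group of MRP4 were closer together than the groups were to each other, as in MRP7 below. Both genes were named because their groups do not overlap, so this closeness is no separate evidence of a difference. MRPL3 (mL44), which resembles ribonuclease III, had 70 and 76.6 CPM in the mutant and 107 and 80.4 CPM in WT. MRP7, the bL27 protein, whose bacterial counterpart reaches the peptidyl transferase centre, had 63.7 and 67.3 CPM in the mutant and 77.5 and 82.1 CPM in WT. Their log2 fold changes were -0.36 and -0.29, and those of MRPL25 (mL59), MRPL32 (bL32m), MRPS9 (uS9m) and MRPL28 (mL40) were -0.27 to -0.14.

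The widest ranges over the 4 libraries belonged to members whose groups overlapped or whose replicates differed. MRP17 (bS6m; YKL003C, chrXI:437097-437492, minus strand) had 19 and 31.8 CPM in the mutant and 13.9 and 20.4 CPM in WT. It had the largest fitted log2 fold change of all members, 0.54 ± 0.33, but the lower mutant library lay below the higher WT library. RSM22 had 25.5 and 18.1 CPM in the mutant and 37.1 and 25 CPM in WT, at -0.49 ± 0.29, with WT replicate 2 between the mutant libraries. MRPL37 (mL54) had 51.9 and 63.3 CPM in the mutant and 34.1 and 60.1 CPM in WT, and WT replicate 1 was well below the other 3.

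**Figure D3:**
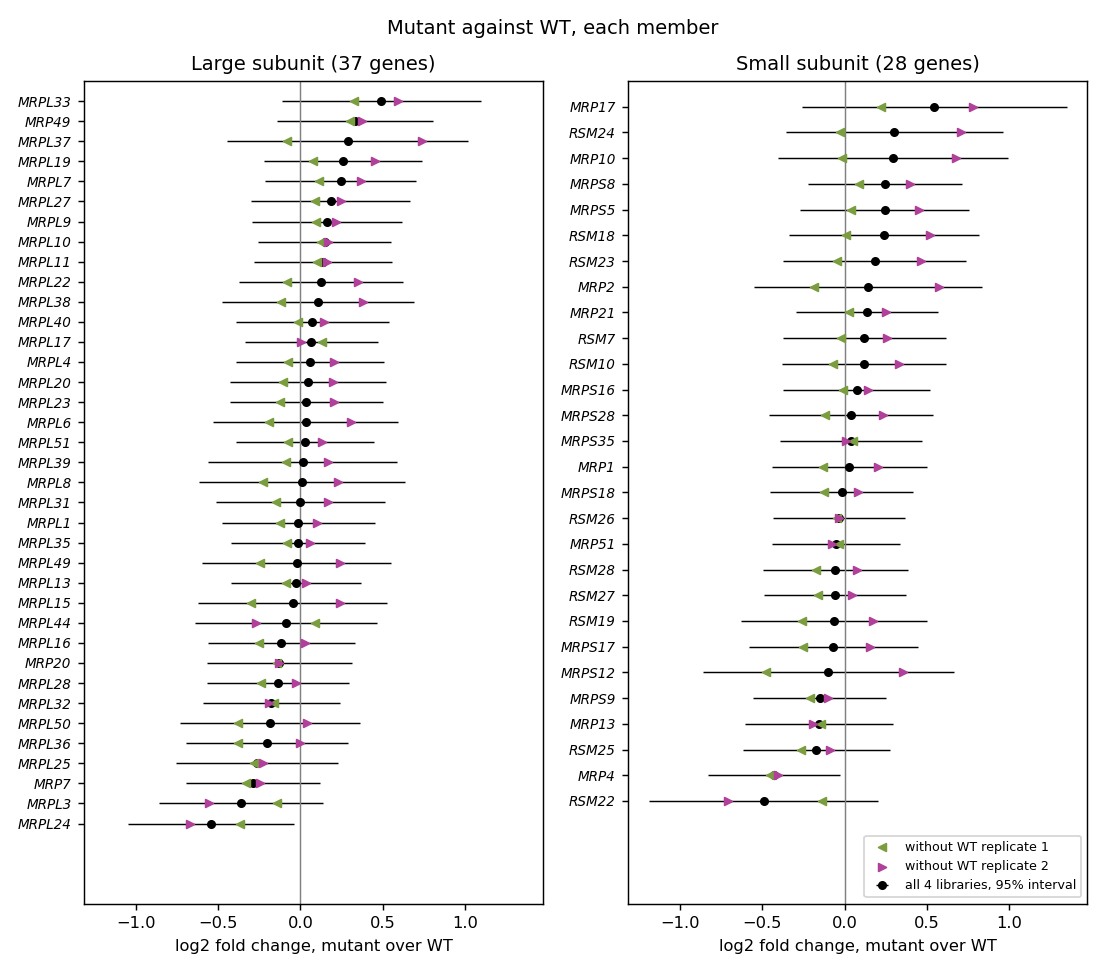
Log2 fold change of each member, mutant over WT (horizontal axis), with its 95% interval over all 4 libraries (black) and its value without WT replicate 1 (left-pointing) and without WT replicate 2 (right-pointing). The fitted values run from -0.54 to 0.54, and for most members the estimate without WT replicate 2 lies to the right of the estimate without WT replicate 1.

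At the median, the members differed more between the WT replicates than between the strains. These measures are unlike, because the first is between single libraries and the second is fitted over 2 libraries per strain. In that fit the median WT deviations, -0.144 in replicate 1 and 0.124 in replicate 2, largely offset each other. WT replicate 1 lay below WT replicate 2 in 56 of the 65 members, or 86.2%, against 48.4% of all genes tested and 58% of genes without a hydrophobic segment. It did so in all 27 members of universal families, in 10 of 13 of bacterial families and in 19 of 24 of mitochondrial families. The median difference, WT replicate 1 minus WT replicate 2, was -0.252 on the log2 CPM scale, against 0.015 over all genes. Between the mutant replicates it was -0.048. WT replicate 1 was the lowest of the 4 libraries in 42 members.

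**Figure D4:**
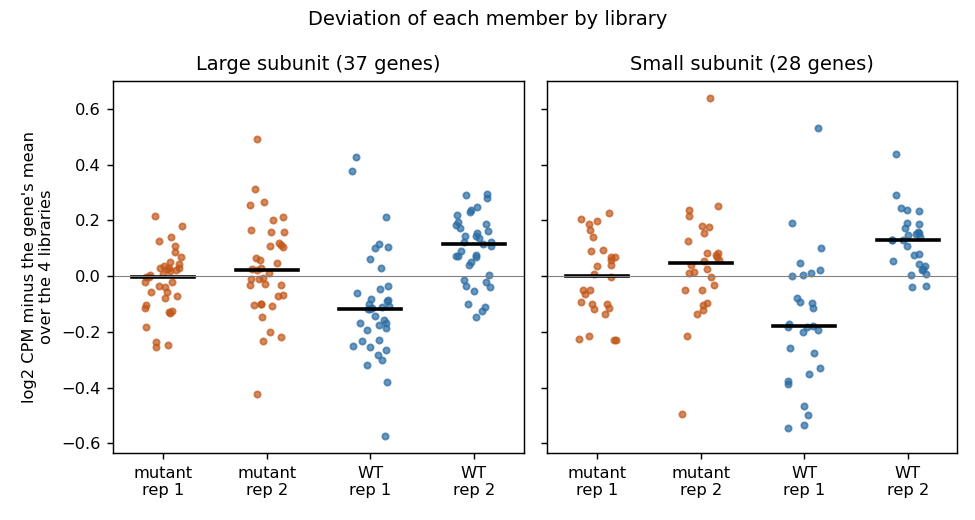
Log2 CPM of each member minus its mean over the 4 libraries (vertical axis), by library, with the median as a bar and horizontal scatter added for visibility only. The median of WT replicate 1 is the lowest and that of WT replicate 2 the highest in both subunits, with the mutant libraries between them.

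This difference moved with coding length. Over the members, coding length and the log2 difference of the WT replicates had a Spearman correlation of 0.378, and over 3642 other genes without a hydrophobic segment it was 0.479. In the 24 members of up to 500 bases the median difference was -0.32, against -0.30 in 463 such other genes of that length. In the 12 members over 500 and up to 750 bases it was -0.29, against -0.20 in 505 other genes, and in the 19 members over 750 and up to 1000 bases it was -0.17, against -0.13 in 486. In the 10 members over 1000 bases it was 0.00, against 0.04 in 2188 other genes. The part of length in the fold changes was not tested. The length classes were chosen after the values were seen.

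**Figure D5:**
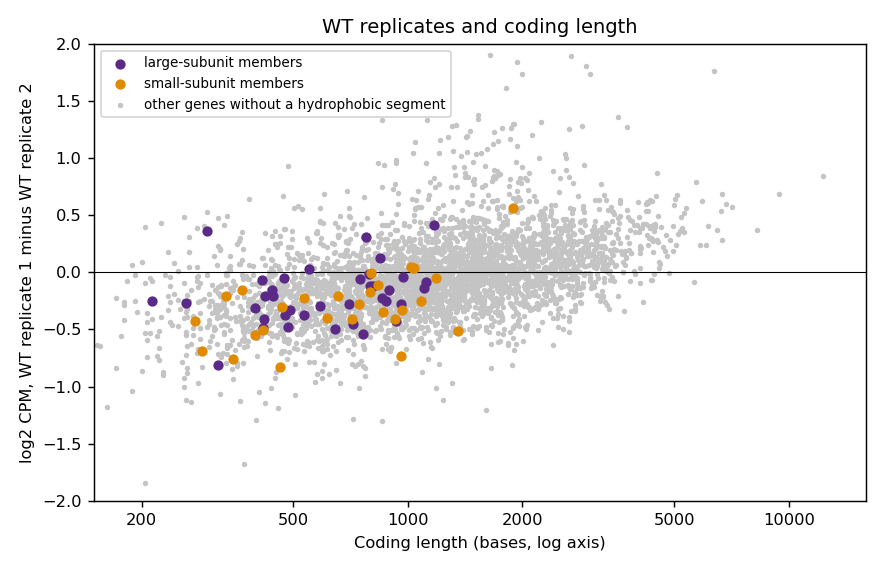
Log2 CPM of WT replicate 1 minus WT replicate 2 (vertical axis) against coding length (horizontal axis, bases, log axis) for the members of each subunit and for other genes without a hydrophobic segment, of which 10 lie outside the axes. Members up to 500 bases have a median of -0.32 and those over 1000 bases a median of 0.00, and they lie within the cloud of the other genes.

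The members' median changed sign with the WT library used. Without WT replicate 1 it was -0.10, with 16 members above 0 and 49 below, and without WT replicate 2 it was 0.17, with 50 above and 15 below. Without WT replicate 1 edgeR called 0 members, against 0.325% of genes higher and 0.42% lower. Without WT replicate 2, where the remaining WT library is assumed to vary like the mutant pair, edgeR called 6 members higher, or 9.23%, against 4.35% of all genes, and 3 lower, or 4.62%, against 14.9% of all genes. The higher members were MRP17, MRPL37, RSM24 (mS35), MRP10 (mS37, imported by the Mia40 pathway), MRPL33 and MRP2 (uS14m), with log2 fold changes of 0.58 to 0.78. The lower members were RSM22, MRPL24 and MRPL3, at -0.71, -0.67 and -0.55. Of these 9, MRP10, MRP2 and RSM24 were named only after their values were seen. When genes with a hydrophobic segment were left out as well, 2 members were called higher, MRPL37 and RSM24, or 3.08%, against 1.43% of the 3711 genes in that fit. The same 3 were called lower, or 4.62%, against 5.07%.

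The balance of the subunits was compared as 1 value per library. The large-subunit median minus the small-subunit median, in log2 CPM per kilobase, was -0.261 and -0.242 in the mutant and -0.115 and -0.201 in WT. Both mutant values were lower than both WT values (exact permutation test over libraries, two-sided, p = 0.333, the smallest that this design allows). In summed counts the large subunit held 1.16 times the counts of the small subunit in both mutant libraries and 1.21 and 1.15 times in WT (exact permutation test, two-sided, p = 1).

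The members were also set against the cytosolic ribosomal proteins. There were 2.49 and 2.2 counts on members per 100 counts on cytosolic ribosomal proteins in the mutant and 2.65 and 2.95 in WT (exact permutation test over libraries, two-sided, p = 0.333, the smallest possible). The cytosolic ribosomal proteins themselves held 16.1% and 17.9% of all counts in the mutant and 14.2% and 14.8% in WT, with a median log2 fold change of 0.25 over 137 genes, 126 of them above 0. None of the 137 was called. Of the 137, 114 share at least 1 stretch of 28 bases with another coding sequence, against 2 of the 65 members. How reads with several matches were counted is not stated, and these shares depend on it.

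Other genes of mitochondrial translation were taken from lists of known members, and none of their genes was called in edgeR. Genes listed as mitochondrial ribosomal proteins with other names, such as RML2 (uL2) and NAM9 (uS4), had a median log2 fold change of -0.07. This was over 15 genes, 7 above 0 and 8 below. Of these 15, 14 had the Puf3 motif, and the exception was KGD4, listed as YMR31. KGD4 is also among the 7 above 0, at 0.33, and whether it is a ribosomal protein was not checked here. VAR1, also on this list, is mitochondrially encoded, had no motif and did not pass the filter. RML2 had 57.5 and 56.6 CPM in the mutant and 84.8 and 74.8 CPM in WT, a log2 fold change of -0.48 (edgeR adjusted p = 0.755). Like the members, 13 of these 15 genes had less in WT replicate 1 than in WT replicate 2.

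The lists of factors that work with the ribosome had medians below 0, and WT replicate 1 was the highest library for most of their genes. Mitochondrial aminoacyl-tRNA synthetases had a median of -0.46 over 14 genes, 13 of them below 0, and WT replicate 1 was the highest library in 13 of the 14; without that library the median was -0.18. Translation factors had a median of -0.37 over 12 genes, with 11 below 0 and -0.17 without WT replicate 1, the highest library in 8 of them. TUF1, the mitochondrial elongation factor Tu, had 131 and 133 CPM in the mutant and 334 and 159 CPM in WT. Assembly and rRNA modification factors had a median of -0.36 over 14 genes, with 11 below 0 and -0.16 without WT replicate 1, the highest library in 9 of them. MSS116, a DEAD-box RNA helicase, had 45.8 and 54.8 CPM in the mutant and 179 and 53.8 CPM in WT. Translational activators of mitochondrial mRNAs had a median of -0.07 over 15 genes, with 7 above 0 and 8 below. The median difference between the WT replicates was 0.63 in the synthetases, 0.33 in the translation factors, 0.52 in the assembly factors and 0.31 in the translational activators. Their median coding lengths are 1545, 1278, 1281 and 1470 bases, against 714 bases for the members. In 2188 other genes over 1000 bases without a hydrophobic segment the median difference was 0.04. The part of length in the differences of these lists was not tested.

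The regulators on the list included PUF3 itself, with 58.6 and 57.3 CPM in the mutant and 70.9 and 67 CPM in WT, a log2 fold change of -0.25 (edgeR adjusted p = 0.771). HAP4, the activating subunit of the transcription factor that drives respiratory genes, had 111 and 105 CPM in the mutant and 146 and 167 CPM in WT, at -0.54 (edgeR adjusted p = 0.755). SFP1, a transcription factor of ribosomal protein genes, had 58.6 and 74.7 CPM in the mutant and 52.2 and 57.3 CPM in WT, at 0.28. These 3 have the smallest p of the 6 regulators listed, and none passed the test. The groups overlapped for the other 3 on the list. Of the 8 mitochondrially encoded proteins, 4 passed the filter, with a median of -0.71 that was 0.22 without WT replicate 1. Their counts in the mutant replicates were low, from 10 and 6 for COB to 137 and 92 for OLI1. Mitochondrial ribosomes translate the mRNAs of these proteins, so their counts do not reflect cytosolic ribosomes as those of the members do. COX2, a subunit of cytochrome c oxidase, had 10.5 and 18.1 CPM in the mutant and 41 and 11 CPM in WT, so that WT replicate 1 alone was high. OLI1, a subunit of the ATP synthase, had a fitted difference of the opposite sign, with 17.6 and 34 CPM in the mutant and 11 and 15.1 CPM in WT, a log2 fold change of 0.95 (edgeR unadjusted p = 0.0382, adjusted p = 0.755). Its groups did not overlap, and WT replicate 1 was its lowest library.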

How the data were processed

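Per the labels, footprints were sequenced from 4 polysome extracts. What the authors deposited are raw counts of reads for each coding sequence, in whole numbers, in a single table. Bowtie2, DESeq2 and the build sacCer3 appear in the submitters' processing notes; neither versions nor the counting tool, its strand setting and its handling of multiply matching reads are stated in the sources used here. Because the header line is separated by single tabs and the data by doubled ones, header names were taken in order for the filled fields, on which each library's values depend. By systematic name, 5917 of the 6600 rows were found in RefSeq.

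The test was edgeR's two-sided quasi-likelihood test (edgeR 4.0.16, R 4.3.3) with TMM and filterByExpr (minimum count 10, total 15), and Benjamini-Hochberg adjustment covered all 5233 genes that passed, at 0.05; log2 CPM used a prior count of 2. Intervals are 95%. A count of 0 would allow 3 counts, or 0.101 to 1.06 CPM, for counting error only. DESeq2 1.42.0, other scalings and filters, a replicate block and leaving out each library were alternatives. Named members are the 8 with the largest and the 8 with the smallest log2 fold change without overlap of the groups, the 4 at each end of the levels, the 4 with the widest range and the 2 with the smallest adjusted p per direction; from other lists, up to 3 genes with the smallest p. Not all of these are printed. The members and lists were chosen with earlier results of these data known. Python 3.11.15, pandas 2.3.3, SciPy 1.17.1 and matplotlib 3.10.9 were used.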

Additional observations from a re-analysis of the deposited data

How the results depend on the processing

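The members' calls and medians kept their side and direction with RLE size factors, library totals, no filter, a mean count of at least 50, DESeq2 and without either mutant replicate; over all genes DESeq2 called 4 lower. The replicate numbers did not pair the libraries (correlation of same-numbered deviations 0.0805 over 4603 genes), and with the replicate block the median was 0.03 and 0 members were called. Leaving out each library in turn gave 0 to 228 genes called higher, 0 to 780 lower, 0 to 6 members higher and 0 to 3 lower. The median of the members, and of those of the large subunit, ran from -0.10 without WT replicate 1 to 0.17 without WT replicate 2. Log2 fold changes changed sign among these: MRPL20 (-0.10 to 0.20), MRPL51 (-0.08 to 0.13), MRP20 (-0.31 to 0.05), MRPL1 (-0.12 to 0.10), MRPL37 (-0.08 to 0.74), MRP10 (-0.02 to 0.68), MRP2 (-0.19 to 0.58), RSM24 (-0.03 to 0.70) and COX2 (-1.64 to 0.26).

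An alternative chosen after seeing the data kept only genes without a hydrophobic segment. MRPL51 was then at -0.02. Without WT replicate 1 as well, 7 genes were called higher and 16 lower, the median of the members and of the large subunit was -0.11, and the values were -0.11 for MRPL20, -0.09 for MRPL51 and MRPL37, -0.02 for MRP10, -0.20 for MRP2 and -0.04 for RSM24. Without WT replicate 2 as well, 53 genes were called higher and 188 lower, with 2 members higher and 3 lower, and MRPL1 was at 0.02. The cause of these changes was not tested. Puf3 motif windows of 150 and 500 bases both gave 64 members. The lowest total, 2826895 counts in mutant replicate 2, put at least 43 counts on each member.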
